A study of Mus musculus with 9 samples.

Results

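The MYC, MAX and MXD network of transcription factors was described in 9 cultures of mouse cytotoxic T lymphocytes (CTL), activated CD8 T cells that kill target cells. Its members were taken as Myc, Max, Mlx, Mnt, Mxd1, Mxi1, Mxd3 and Mxd4, that is 8 of the 18193 genes with a probe set of their own on the array, and every probe set annotated with one of these symbols was used, 18 of the 45037 probe sets other than controls. All cells carried the P14 T cell receptor transgene on an otherwise wild type background and came from spleen, 1 spleen per replicate number. Splenocytes were activated with the peptide gp33-41 and the interleukins 2 and 12 for 48 h and were then kept in culture for a further 96 h, so that RNA was taken on day 6. For the last 48 h the cells received DMSO, the solvent control, 20 nM of rapamycin, or else KU-0063794 at 1 uM, with 3 arrays in each group. Rapamycin blocks mainly mTOR complex 1 through the protein FKBP12, and KU-0063794 blocks the mTOR kinase itself and so both of its complexes. The labels give no age for the mice, and in bulk RNA fewer cells of a type and less RNA per cell cannot be told apart.

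MYC is a basic helix-loop-helix leucine zipper protein that binds DNA as a dimer with MAX, preferring the sequence CACGTG, the canonical E-box, and raises the transcription of genes for growth, metabolism and division. MAX also pairs with MXD1, MXI1, MXD3, MXD4 and MNT, which recruit SIN3 corepressors to the same sequence, so that these proteins compete with MYC for both MAX and DNA. MLX is a MAX-like partner that dimerises with some MXD proteins and MNT and with the glucose-sensing factors encoded by Mlxip and Mlxipl. In T cells MYC is induced by activation and drives the metabolic programme of the growing cell, and MXD genes are classically linked to exit from growth and to differentiation.

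The RefSeq promoter windows of the members, each 300 bases long from 250 bases before to 50 after a transcription start on GRCm38.p6, were searched for CACGTG, which reads the same on both strands. Of the 8 members 7 matched the table, with 9 windows, and Myc did not. The letters were found once in the windows of 4 of these genes, Max, Mlx, Mnt and Mxd4, against 7.15% of all 32851 windows and 11.07% of the tested genes that had one. These 4 windows are shown because they hold the sequence that the network's own dimers bind; the capitals mark it, and each is written 5′ to 3′ on the strand of the gene. They lie at chr12:76962199-76962498 (minus strand, Max), chr11:101087040-101087339 (plus strand, Mlx), chr11:74830674-74830973 (plus strand, Mnt) and chr5:34187661-34187960 (minus strand, Mxd4).
Max: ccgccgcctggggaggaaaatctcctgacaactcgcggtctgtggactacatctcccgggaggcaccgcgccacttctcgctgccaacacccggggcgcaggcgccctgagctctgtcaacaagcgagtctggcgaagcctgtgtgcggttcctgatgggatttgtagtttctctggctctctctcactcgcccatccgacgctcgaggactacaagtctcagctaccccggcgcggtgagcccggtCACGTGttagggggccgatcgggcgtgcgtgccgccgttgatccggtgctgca
Mlx: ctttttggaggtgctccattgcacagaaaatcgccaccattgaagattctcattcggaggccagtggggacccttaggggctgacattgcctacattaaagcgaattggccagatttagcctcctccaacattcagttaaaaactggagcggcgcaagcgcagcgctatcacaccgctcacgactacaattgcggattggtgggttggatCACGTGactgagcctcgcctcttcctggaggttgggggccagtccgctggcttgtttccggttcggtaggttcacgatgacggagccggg
Mnt: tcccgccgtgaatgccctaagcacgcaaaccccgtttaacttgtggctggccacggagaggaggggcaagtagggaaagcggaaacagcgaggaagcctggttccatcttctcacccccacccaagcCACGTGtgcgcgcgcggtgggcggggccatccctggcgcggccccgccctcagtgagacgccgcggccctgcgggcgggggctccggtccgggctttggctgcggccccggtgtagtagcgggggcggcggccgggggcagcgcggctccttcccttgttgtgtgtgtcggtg
Mxd4: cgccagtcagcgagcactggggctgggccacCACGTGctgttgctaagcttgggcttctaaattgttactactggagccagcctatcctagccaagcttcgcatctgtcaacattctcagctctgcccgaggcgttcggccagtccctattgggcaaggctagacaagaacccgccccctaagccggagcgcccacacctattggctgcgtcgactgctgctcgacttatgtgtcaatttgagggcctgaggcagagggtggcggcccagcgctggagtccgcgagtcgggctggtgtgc
The E-box of Max lay across the start site, from base -3 to base 3, that of Mlx at -40 to -35, that of Mnt at -123 to -118 and that of Mxd4 at -219 to -214. The windows of Mxd1 and Mxd3 and the 3 windows of Mxi1 did not hold these 6 letters, which says nothing about sites elsewhere. Distances are from the transcription start of the window, which need not be the outermost end of the gene. The Mlx window, for instance, lies wholly inside the Mlx gene position of chr11:101086707-101092207. A match is a description of the sequence, and binding was not measured here.

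**Figure D1:**
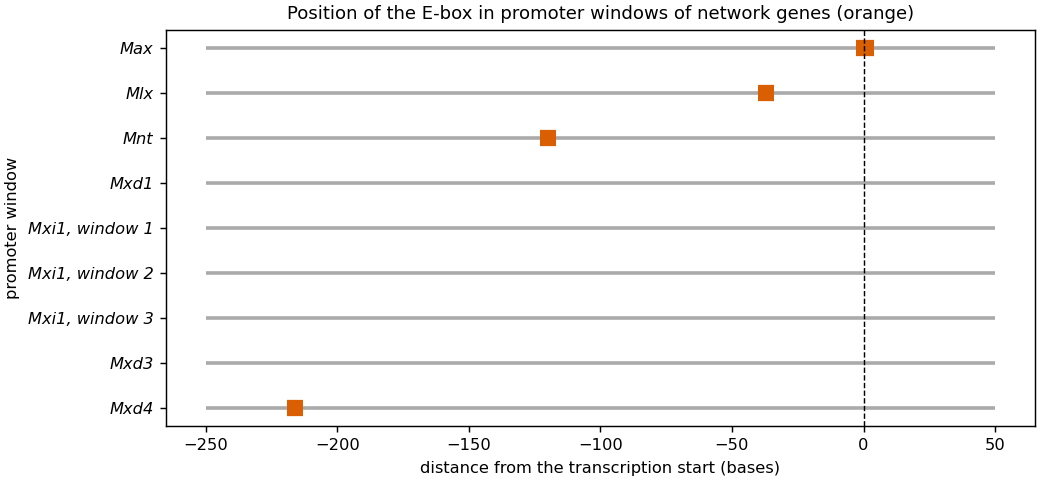
Position of CACGTG (orange) in the 9 promoter windows of 7 network genes, with the distance in bases from the transcription start on the horizontal axis and 1 line per window. The match crosses the start of the Max window, lies 40 bases before that of the Mlx window, 123 before that of Mnt and 219 before that of Mxd4.

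The deposited values are log2 signals, so a difference of 1 is a doubling, and the signals of different probe sets are not comparable as levels. A background level was set at 1.43 log2, the 95th percentile of 32 genes restricted to tissues such as liver, heart and brain. Of the 18 member probe sets 13 lay above it on all 9 arrays and 5 on none, namely the second probe set of Mnt, the third of Mxd1 and all but the brightest of Mxd4. All 8 genes were therefore measured by at least 1 probe set, and all 18 probe sets passed the filter for testing, a mean above 0.314 log2. The 9 arrays had medians of 0.466 to 0.528 log2, with 29.3% to 29.9% of their probe sets brighter than background. The CD8 T cell markers were above it in every group, 9 of 9. Few markers of other cells reached it in any group: Cd79b of 5 B cell genes, Ctla4, which activated CD8 T cells also express, of 4 CD4 T cell genes, Csf1r of 6 myeloid genes, 0 of 4 erythroid or stromal genes, and not the 1 NK cell gene measured. Summed over the list, the B cell markers read 3.03 to 4.24 log2 under DMSO, 1.82 to 3.94 under rapamycin and 2.73 to 3.94 under KU-0063794, and the myeloid markers 3.00 to 3.68, 2.87 to 3.39 and 3.07 to 3.97. The gap between probe sets for the 3' and the 5' end of a control transcript serves to gauge RNA integrity. For actin the 3' end was brighter by 0.492 to 0.654 log2 on DMSO arrays, 0.618 to 0.72 on rapamycin arrays and 0.647 to 0.699 on KU-0063794 arrays. For Gapdh the gap was -0.21 to 0.0362, -0.245 to -0.0274 and -0.224 to -0.0261 in the same order. The part of marker genes and RNA integrity in the results was not tested.

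Each gene is summarised here at its brightest probe set. Myc, Mnt and Mxd3 had higher signals with either inhibitor in each of the 3 spleens, and Mlx, Mxi1 and Mxd4 had lower ones. Mxd1 was lower by 54.8% with KU-0063794. The share of all genes with 1 direction in all 3 spleens was not computed. The second Mxi1 probe set, also above background, was lower with rapamycin in 2 of 3 spleens. Differences of the 8 genes from DMSO lay between 1.05-fold and 2.21-fold. Each gene was tested by its brightest probe set in a limma fit over all 13278 genes tested, with Benjamini-Hochberg adjustment and a threshold of 0.05. In the fit without a term for the spleen, 1 of 8 members passed for rapamycin, Mlx, which fell, and 0 of 8 passed for KU-0063794 in limma. Unadjusted, 5 of 8 members had a limma p under 0.05 for rapamycin, against 17.9% of all genes. For KU-0063794 4 of 8 had one, against 18.5%. In that fit 4.44% of all genes passed for rapamycin (2.65% higher, 1.79% lower) and 4.07% for KU-0063794 (2.28% higher, 1.78% lower). The control and treated cells of one number came from the same spleen, and with the spleen as a block 5 of 8 members passed for each inhibitor, while 11.8% of all genes did for rapamycin (6.24% higher, 5.52% lower) and 12.4% for KU-0063794 (6.52% higher, 5.86% lower). With rapamycin Myc, Mnt and Mxd3 rose and Mlx and Mxi1 fell in the blocked fit. With KU-0063794 Myc rose and Mlx, Mxd1, Mxi1 and Mxd4 fell in it. With the spleen as a random block, which estimates the correlation within a spleen, 3 members passed for rapamycin (Myc, Mlx and Mxd3) and 4 for KU-0063794 (Myc, Mlx, Mxd1 and Mxi1), against 9.38% and 9.72% of all genes. Both comparisons share the 3 DMSO arrays. All 8 members lay above background, as did 7952 of the 13278 genes tested, so the shares of all genes take in many dim genes. In a blocked fit of only those 7952 genes, 1885 passed for rapamycin and 2088 for KU-0063794, with 7 and 5 members among them. Without the block 706 and 671 of them passed, with 2 and 1 members.

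**Figure D2:**
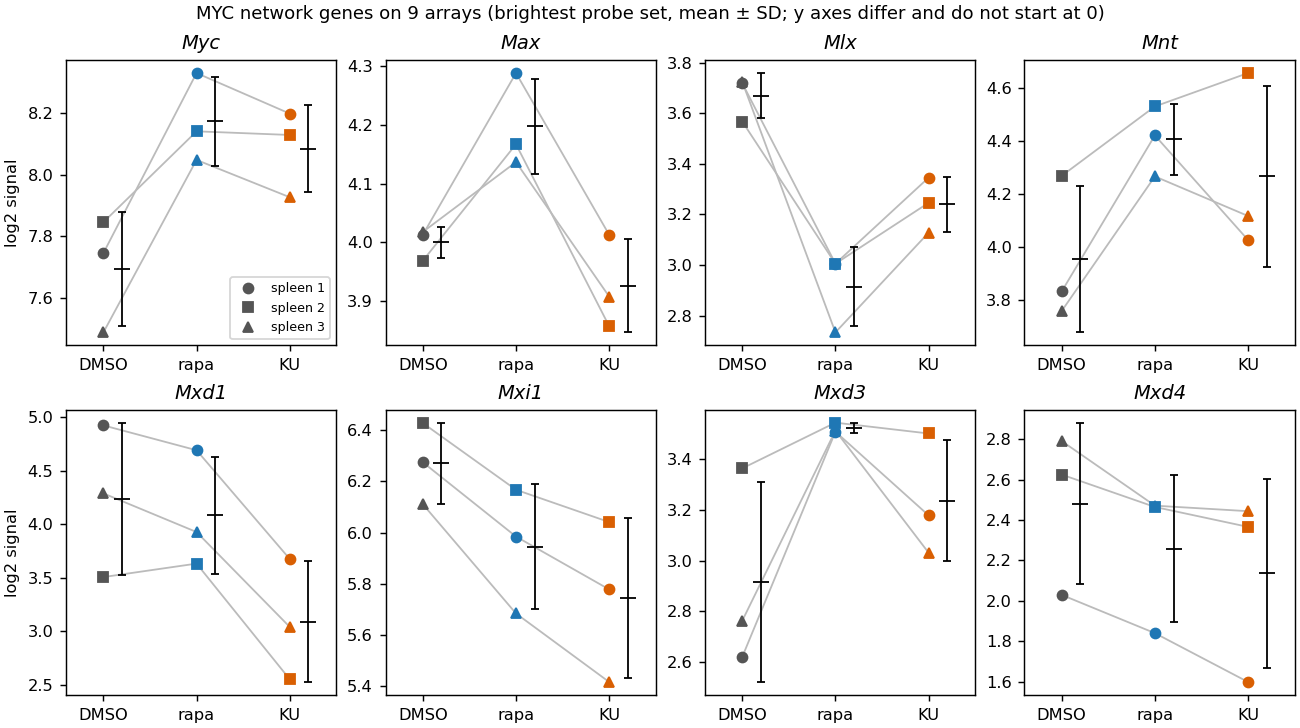
Log2 signal of each network gene (brightest probe set) on the 9 arrays by group, 1 panel per gene with its own vertical axis, symbols and grey lines marking the 3 spleens and black bars the mean ± SD of 3 arrays. Myc lies higher with both inhibitors (7.69 log2 on average in DMSO, 8.17 under rapamycin and 8.08 under KU-0063794), Mlx lower with both, and the lines of Mxd1 run nearly parallel down to KU-0063794.

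Myc, the activator of the network, lies on chromosome 15 (chr15:61985341-61990361, GRCm38.p6) and was measured by 1 probe set (1424942_a_at). Its signal in spleens 1, 2 and 3 was 7.75, 7.85 and 7.49 log2 under DMSO, 8.33, 8.14 and 8.05 under rapamycin and 8.20, 8.13 and 7.93 under KU-0063794. Every treated array was above every DMSO array, a separation that 19.1% of all genes showed for rapamycin (9.38% higher, 9.69% lower) and 20.2% for KU-0063794 (11% higher, 9.29% lower). The mean was 7.69 ± 0.18 (SD, n = 3) log2 under DMSO and 8.17 ± 0.14 in rapamycin cultures, a log2 fold change of 0.48 (SE 0.12, or 1.39-fold; limma adjusted p = 0.0598, and 0.00881 with the spleen as a block). With KU-0063794 it was 8.08 ± 0.14 (SD, n = 3), a log2 fold change of 0.39 (1.31-fold; adjusted p = 0.115, and 0.0175 with the block). The order of the groups was thus DMSO, KU-0063794, rapamycin, and the inhibitor groups overlapped, with a difference of -0.09 (95% confidence interval -0.36 to 0.18; adjusted p = 0.972).

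The blocked call of Myc for rapamycin was lost without rapamycin replicate 1 (limma adjusted p = 0.0522) and without all arrays of spleen 1 or 3 (0.115 and 0.112). For KU-0063794 it was lost without DMSO replicate 1 or 3 or any KU-0063794 array (0.0617 to 0.0832) and without the arrays of any spleen (0.058 to 0.153). The 5 genes whose signal followed that of Myc most closely over the 9 arrays, among 7951 others above the background level, were Ckap5 (Pearson r = 0.976), Cep44 (0.963), Polr3k (0.962), Timm21 (0.959) and Mis18a (0.957). These coefficients rest on 9 arrays that share 3 spleens and 3 treatments, and they describe likeness only.

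Max, the shared partner, showed the smallest difference from DMSO of the 8 genes for KU-0063794. It lies on chromosome 12 (chr12:76937269-76962323) and had 1 probe set (1423501_at), which in spleens 1 to 3 read 4.01, 3.97 and 4.02 log2 under DMSO, 4.29, 4.17 and 4.14 under rapamycin and 4.01, 3.86 and 3.91 under KU-0063794. The rapamycin arrays were all above the DMSO arrays, by 0.20 log2 on average (SE 0.08; adjusted p = 0.216, and 0.105 with the block), and the KU-0063794 arrays overlapped the DMSO arrays (log2 fold change -0.07, 95% confidence interval -0.25 to 0.10). KU-0063794 arrays were below the rapamycin arrays of the same spleen in 3 of 3 spleens, with a difference of -0.27 log2 (95% confidence interval -0.45 to -0.10). That difference had an unadjusted p of 0.00634 and an adjusted p of 0.933 in limma, or 0.337 with the block, and so did not pass.

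Mlx, which encodes the MAX-like partner of the glucose-sensing factors, was the only member to pass for rapamycin without the block. Its brighter probe set (1418437_a_at; gene at chr11:101086707-101092207) read 3.72, 3.57 and 3.72 log2 under DMSO, 3.01, 3.01 and 2.73 under rapamycin and 3.35, 3.25 and 3.13 under KU-0063794. All 6 treated arrays were below all 3 DMSO arrays. With rapamycin Mlx fell by 0.76 on the log2 scale (SE 0.10, 1.69-fold lower; adjusted p = 0.00818, and 0.0033 with the block), and it stayed past the threshold when any single array was left out. The call was lost in the unblocked fit when all 3 arrays of a spleen were left out (adjusted p from 0.0792 to 0.141), and in the blocked fit for spleen 1 or 3 (0.0701 and 0.0595). With KU-0063794 the log2 fold change was -0.43 (SE 0.10), with an adjusted p of 0.05001 without the block and 0.0206 with it; the blocked call was lost without DMSO replicate 1 or 3, any KU-0063794 array (0.0673 to 0.0912) or any spleen (0.0779 to 0.153). The second Mlx probe set (1425930_a_at) read 3.40 to 3.42 log2 under DMSO, 2.78 to 3.13 under rapamycin and 2.82 to 3.07 under KU-0063794, again with no overlap. Its log2 fold changes were -0.40 and -0.45, with adjusted p of 0.114 and 0.0844 over the 27022 probe sets tested and of 0.038 and 0.0249 with the block.

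The Mlx probe sets differed in how they set the inhibitors apart. On the brighter one KU-0063794 arrays were above rapamycin arrays by 0.33 log2 (95% confidence interval 0.10 to 0.55; adjusted p = 0.933), and on the other the difference was -0.05. The genes nearest in pattern to the brighter probe set were Tmem70 (r = 0.991), Sec13 (0.983), Timm8b (0.981), Sec24d (0.975) and Selenos (0.968), again over 9 arrays of shared spleens and treatments.

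Mnt, a broadly expressed repressor that pairs with MAX and MLX, rose with rapamycin in the blocked fit. Its bright probe set (1418192_at; gene at chr11:74830806-74845725) read 3.83, 4.27 and 3.76 log2 under DMSO, 4.42, 4.53 and 4.27 under rapamycin and 4.03, 4.66 and 4.12 under KU-0063794. Each treated array was above the DMSO array of its own spleen, although the groups overlapped through spleen 2. The log2 fold change was 0.45 for rapamycin (SE 0.18; adjusted p = 0.235, and 0.0255 with the block) and 0.31 for KU-0063794 (adjusted p = 0.419, and 0.0854 with the block). The call was lost with the spleen as a random block (adjusted p = 0.0804 with an estimated correlation). The blocked call for rapamycin was also lost without any single DMSO array, rapamycin replicate 1 or 3 (0.0636 to 0.108) or any spleen (0.0581 to 0.198). The other Mnt probe set lay at background on every array and its log2 fold changes were -0.04 and -0.05.

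Of the MXD repressors, Mxd1 showed the widest difference between the inhibitors. MXD1 is induced as many cell types stop growing and differentiate. The brightest Mxd1 probe set (1434830_at; gene at chr6:86647044-86669234) read 4.92, 3.51 and 4.29 log2 in spleens 1 to 3 with DMSO, 4.69, 3.63 and 3.93 with rapamycin and 3.68, 2.56 and 3.04 with KU-0063794. Spleens differed more from each other than DMSO did from rapamycin, whereas within spleens 1, 2 and 3 the KU-0063794 array differed from the DMSO array by -1.24, -0.95 and -1.24 log2. In the unblocked fit the log2 fold change of -1.15 had an SE of 0.40 (adjusted p = 0.162). With the block its SE was 0.10 (2.21-fold lower, adjusted p = 0.0013), and the call held without any single array. Without all arrays of spleen 1 the blocked adjusted p was 0.0525.

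Rapamycin gave a log2 fold change of -0.16 for this Mxd1 probe set, with an interval in the blocked fit of -0.38 to 0.07. Compared directly, KU-0063794 and rapamycin cultures differed by -1.01, -1.08 and -0.88 log2 in spleens 1, 2 and 3, KU-0063794 being lower in each. That difference had the second smallest unadjusted p of all 13278 genes in the blocked fit (9.55e-06), but did not pass the adjustment (adjusted p = 0.933, and 0.0587 with the block). Within the blocked fit, alternatives tried after the data were seen gave an adjusted p of 0.0328 after quantile normalization, 0.0206 after median centring, 0.0541 with only genes above background, and 0.204 with the mean of all Mxd1 probe sets, where the difference was -0.63. The second Mxd1 probe set (1455104_at), annotated from the same transcript record, read 4.80, 3.75 and 4.15 log2 under DMSO, 4.25, 3.29 and 3.28 under rapamycin and 3.24, 2.90 and 2.41 under KU-0063794. Here the KU-0063794 arrays lay below all DMSO arrays (log2 fold change -1.38, adjusted p = 0.0683, and 0.00325 with the block), and the value for rapamycin was -0.63 (adjusted p = 0.426, and 0.053 with the block). The third probe set stayed at background.

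Mxi1, whose protein is also called MXD2, fell with both inhibitors in the blocked fit. Its brighter probe set (1450376_at; gene at chr19:53310128-53373293) read 6.27, 6.43 and 6.11 log2 under DMSO, 5.98, 6.17 and 5.68 under rapamycin and 5.78, 6.04 and 5.42 under KU-0063794, so that every spleen stepped down from DMSO to rapamycin to KU-0063794. For rapamycin the log2 fold change was -0.33 (SE 0.17; adjusted p = 0.377, and 0.0328 with the block), a call lost without DMSO replicate 1 or 3, any rapamycin array, KU-0063794 replicate 1 (0.0548 to 0.123) or any spleen (0.115 to 0.18). It was also lost with the spleen as a random block (adjusted p = 0.161 with an estimated correlation). For KU-0063794 it was -0.53 (adjusted p = 0.137, and 0.00617 with the block), and the blocked call held without any single array but not without spleen 1 or 3 (0.0903 and 0.0793). The difference between the inhibitors was -0.20 (95% confidence interval -0.59 to 0.19; adjusted p = 0.959). The second Mxi1 probe set (1425732_a_at) told the inhibitors apart more clearly: 3.38, 3.38 and 3.60 log2 under DMSO, 3.58, 3.36 and 3.27 under rapamycin and 2.96, 2.80 and 2.75 under KU-0063794. It fell with KU-0063794 also in the unblocked fit over probe sets (log2 fold change -0.62, SE 0.11; adjusted p = 0.0235), with -0.05 for rapamycin (adjusted p = 0.888). The direct difference of -0.57, seen without overlap of the arrays, did not pass (adjusted p = 0.968, and 0.334 with the block).

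Mxd3, the MXD family member known for expression in dividing cells, went the other way. Its 3 probe sets were all above background, and on each the 3 spleens were higher with either inhibitor. The brightest (1438847_at; gene at chr13:55325170-55329900) read 2.62, 3.36 and 2.76 log2 under DMSO, 3.51, 3.55 and 3.51 under rapamycin and 3.18, 3.50 and 3.03 under KU-0063794. Its log2 fold change for rapamycin was 0.61 (SE 0.19, 1.52-fold; adjusted p = 0.112, and 0.0242 with the block), lost in the blocked fit without DMSO replicate 1 or 3, rapamycin replicate 1 or 3 (0.09 to 0.114) or spleen 1 or 3 (0.21 and 0.198). The other probe sets, which share one transcript record, gave larger values. Probe set 1448878_at read 2.30, 2.70 and 2.78 log2 under DMSO and 3.45, 3.21 and 3.64 in rapamycin cultures, and it rose by 0.84 on the log2 scale without the block (SE 0.15; adjusted p = 0.0255, and 0.0118 with it). Probe set 1422970_at gave 0.87 on that scale (adjusted p = 0.0588, and 0.00812 with the block).

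For KU-0063794 the brightest Mxd3 probe set had a log2 fold change of 0.32 and did not pass in either fit (adjusted p = 0.41 and 0.169). The other probe sets passed with the block (log2 fold changes 0.67 and 0.56; adjusted p = 0.0189 and 0.0456). The interval of the difference between the inhibitors was -0.70 to 0.13 log2 for the brightest probe set.

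Mxd4 had 1 probe set above background (1434378_a_at; gene at chr5:34176580-34187710). It read 2.03, 2.62 and 2.79 log2 under DMSO, 1.84, 2.46 and 2.47 under rapamycin and 1.60, 2.37 and 2.44 under KU-0063794. Spleen 1 was the lowest in every group, and within each spleen the order was DMSO above rapamycin above KU-0063794. The log2 fold change was -0.22 for rapamycin (adjusted p = 0.747, and 0.0958 with the block) and -0.35 for KU-0063794 (SE 0.28; adjusted p = 0.577, and 0.0212 with the block, where the SE was 0.07). The call was lost with the random block (adjusted p = 0.325 with an estimated correlation). The call for KU-0063794 was lost in the blocked fit without DMSO replicate 1 or 3, any KU-0063794 array (0.059 to 0.104) or any spleen (0.0984 to 0.162). The other 3 Mxd4 probe sets lay at background on all 9 arrays.

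Over all 18 probe sets, 2 passed for rapamycin in the unblocked fit, 1 higher and 1 lower, and 1 passed for KU-0063794, lower. Over all 27022 probe sets 2.61% passed for rapamycin (1.66% higher, 0.951% lower) and 2.34% for KU-0063794 (1.27% higher, 1.07% lower). With the block 8 passed for rapamycin, 5 higher and 3 lower, and 10 for KU-0063794, 3 higher and 7 lower, against 7.77% of all probe sets for rapamycin (4.43% higher, 3.34% lower) and 7.81% for KU-0063794 (3.97% higher, 3.84% lower). Probe sets of one gene measure the same gene's transcripts and are not replicates. With the mean of all probe sets in place of the brightest, dim ones included, the blocked calls of Mnt and Mxi1 for rapamycin (log2 fold changes 0.21 and -0.19) and of Mxd4 for KU-0063794 (-0.19) were lost, and Mxd3 for KU-0063794 (0.52) passed.

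**Figure D3:**
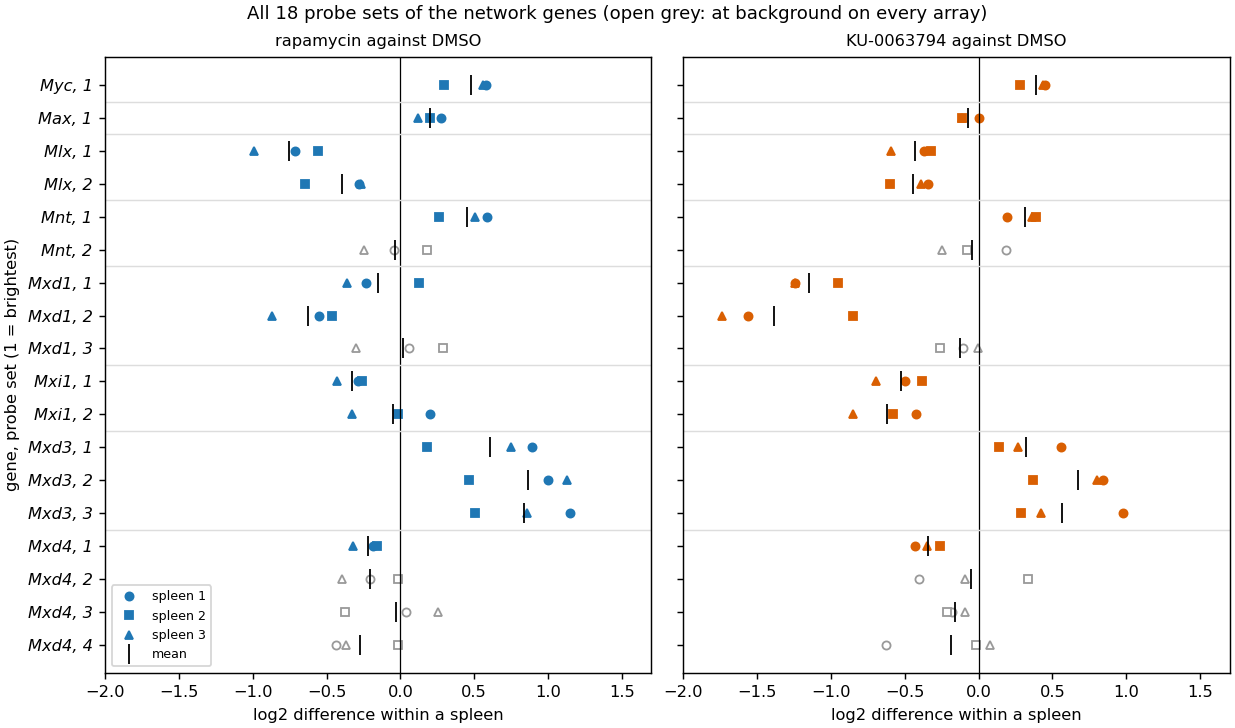
Difference from DMSO within each spleen (log2) for all 18 probe sets, rapamycin on the left and KU-0063794 on the right, with symbols for the 3 spleens and a black tick for their mean. The 3 Mxd3 probe sets lie to the right of 0 in every spleen, both Mlx probe sets lie to the left, and open grey symbols are the 5 probe sets at background.

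Between KU-0063794 and rapamycin 0 of 8 members passed in limma, with or without the block, as did 0 of all 13278 genes in both fits. At an unadjusted p under 0.05 there were 3 members, Max, Mlx and Mxd1, and 629 genes (4.74%) without the block, and 4 members and 1329 genes (10%) with it. For 7 of the 8 members all 3 spleens differed in the same direction between the inhibitors, Mnt being the exception. The share of all genes with such agreement was not computed, so this count has nothing to gauge it by. The arrays of the inhibitors did not overlap for 3 members, Mlx being higher and Max and Mxd3 lower with KU-0063794, against 8.16% of all genes (4.87% higher, 3.3% lower). Against DMSO, no overlap was seen for 4 members with rapamycin (Myc, Max and Mxd3 higher, Mlx lower), against 19.1% of all genes, and for 3 with KU-0063794 (Myc higher, Mlx and Mxi1 lower), against 20.2%.

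**Figure D4:**
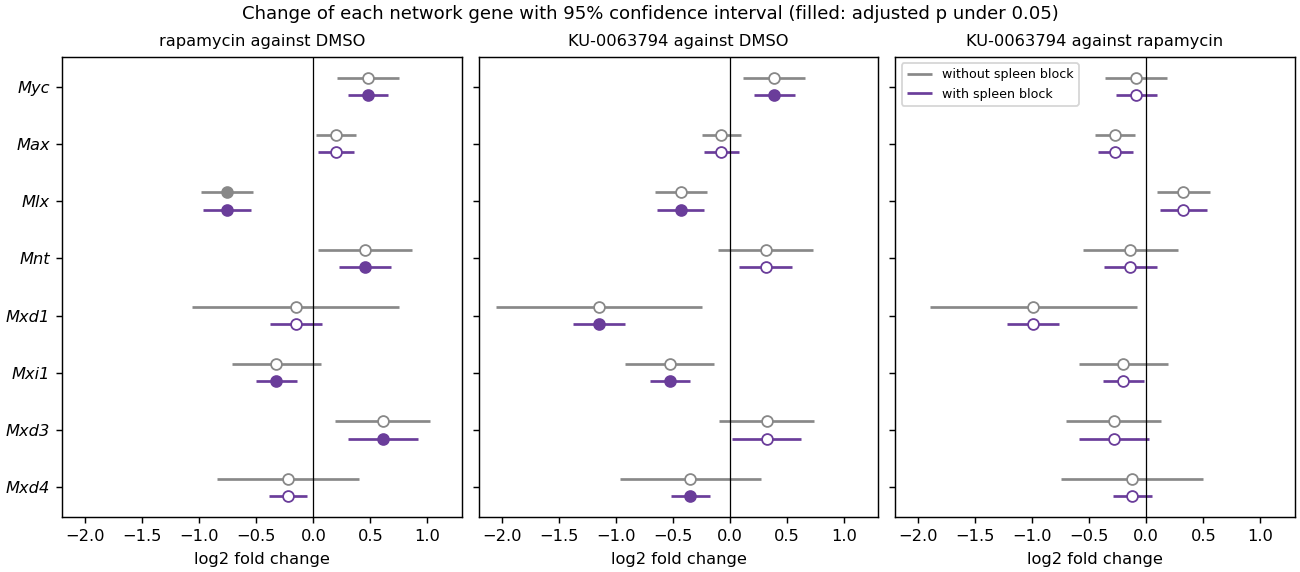
Log2 fold change of each network gene (brightest probe set) in the 3 comparisons with its 95% confidence interval, grey without and violet with the spleen as a block; filled circles have an adjusted p under 0.05. In the unblocked fit the only filled circle is Mlx with rapamycin at -0.76, and in the blocked fit 5 genes pass in each comparison with DMSO and none between the inhibitors.

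Genes that surround the network were read from lists chosen, like the members, with earlier results of these data known, and each list was described by its counts and median beside the tested genes as a whole, whose medians were -0.0043 and 0.011 log2 for rapamycin and KU-0063794. Most tested genes of each list lay above background, for instance 37 of 38 MYC induced targets, against 7952 of all 13278 genes. The shares of all genes beside the lists therefore take in more dim genes than the lists do. Of the further dimer partners and MYC paralogues, Mycl and Mlxipl lay under the filter and 3 genes were tested. Mycn, a MYC paralogue, read 5.69 log2 under DMSO, 5.33 under rapamycin and 5.09 under KU-0063794 on average, lower in 3 of 3 spleens with each inhibitor. It fell with KU-0063794 in the blocked fit (log2 fold change -0.60; adjusted p = 0.224, and 0.0141 with the block), a call lost with the random block (adjusted p = 0.0713 with an estimated correlation). Mlxip, the glucose-sensing partner of MLX, had log2 fold changes of 0.23 and 0.14 (adjusted p = 0.18 and 0.44), and Mga, a further MAX partner, 0.25 and 0.03; neither passed. The medians of the 3 genes were 0.23 and 0.03. No gene of this list passed in limma without the block, and 1 had an unadjusted p under 0.05 for each inhibitor.

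Of the MYC cofactors Zbtb17, which encodes MIZ1, the factor through which MYC represses genes, had log2 fold changes of -0.09 and -0.17 and Trrap, a histone acetyltransferase scaffold, -0.14 and -0.04. None of 12 tested MYC cofactors and none of 8 tested genes of the SIN3 corepressor complex passed in limma without the block. The medians for rapamycin and KU-0063794 were 0.01 and 0.13 for the cofactors and 0.07 and 0.18 for the SIN3 complex. Unadjusted, 0 and 3 cofactors and 3 and 3 SIN3 complex genes had a p under 0.05 for rapamycin and KU-0063794, as had 17.9% and 18.5% of all genes. Sin3a and Sin3b, the scaffolds that MXD proteins bind, had log2 fold changes of 0.24 and -0.20 for rapamycin and 0.26 and -0.22 for KU-0063794, and neither passed with the block. Ruvbl1 and Ruvbl2, helicase genes among the cofactors, rose with KU-0063794 with the block (0.32 and 0.30; adjusted p = 0.0459 and 0.0468), and did not pass with the random block (adjusted p = 0.0776 and 0.0618 with an estimated correlation). Rbbp4, a histone-binding subunit, rose with both inhibitors with the block (0.33 and 0.31; adjusted p = 0.026 and 0.0296, and 0.0502 and 0.0603 without it).

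Among 13 tested genes that act on MYC protein turnover, 3 rose with rapamycin (23.1%) and 2 with KU-0063794 (15.4%), and none fell. Over all genes 4.44% passed for rapamycin (2.65% higher) and 4.07% for KU-0063794 (2.28% higher). The medians of the list were 0.10 and 0.11 log2. With the block 3 rose with rapamycin (23.1%) and 4 with KU-0063794 (30.8%), against 11.8% and 12.4% of all genes, and none fell. The random block gave 3 and 4 as well, against 9.38% and 9.72% of all genes. Cip2a, whose product shields MYC from dephosphorylation, rose by 0.66 with rapamycin (SE 0.10; adjusted p = 0.0105) and by 0.52 with KU-0063794 (adjusted p = 0.022). Skp2, a ubiquitin ligase subunit that acts on MYC, rose by 0.54 and 0.50 (adjusted p = 0.0325 and 0.0436). Pim1, a kinase gene, rose by 0.58 with rapamycin (adjusted p = 0.0383). For KU-0063794 Pim1 had 0.43 (adjusted p = 0.108, and 0.00921 with the block and 0.0278 with the random block). Stub1, of the same list, rose with KU-0063794 with the block (0.33, adjusted p = 0.0195) and with the random block (0.0316). With rapamycin Stub1 had 0.22 and did not pass. Cip2a kept its call for rapamycin without any single array but not without any spleen (0.12 to 0.173). For KU-0063794 it lost its call without DMSO replicate 1 or 3 or any KU-0063794 array (0.0585 to 0.0859). Skp2 lost both calls without any single array but DMSO replicate 3, and Pim1 its unblocked call for rapamycin without any but DMSO replicate 2 or KU-0063794 replicate 2 (adjusted p up to 0.138). Averaged over all its probe sets Skp2 did not pass (0.26 and 0.19), and Cip2a did (0.36 and 0.32). Pim1 lost its call for rapamycin with that average (0.56; adjusted p = 0.18) and with each probe set tested on its own (0.0516). Fbxw7, the ligase subunit best known for MYC degradation, had -0.10 and -0.30 and did not pass. Of 14 tested genes upstream of Myc in T cells, with medians of -0.08 and -0.12, none passed in limma without the block. Unadjusted, 2 had a p under 0.05 for each inhibitor, against 17.9% and 18.5% of all genes. With the block Stat3 (-0.44 and -0.68) and the interleukin 2 receptor gene Il2rb (-0.40 and -0.44) fell with both inhibitors and Foxo3, a forkhead factor gene, with rapamycin (-0.29; adjusted p = 0.0403), while Il2ra (-0.16 and -0.14) passed in neither fit. With an estimated correlation only Foxo3 for rapamycin and Stat3 for KU-0063794 passed; the adjusted p of Stat3 for rapamycin was 0.113, and that of Il2rb was 0.142 and 0.104.

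The genes that MYC is known to induce did not move one way. Of 38 tested, 1 rose and 2 fell with rapamycin and 2 rose and 2 fell with KU-0063794. These were 7.89% and 10.5% of the list, against 4.44% and 4.07% of all genes, and its medians were -0.03 and 0.06 log2. With the block 3 rose and 6 fell with rapamycin and 8 rose and 6 fell with KU-0063794, that is 23.7% and 36.8% against 11.8% and 12.4% of all genes. With the random block 2 rose and 6 fell, and 5 rose and 4 fell, where 9.38% and 9.72% of all genes passed. Cdk4, the G1 kinase gene, rose from 6.29 to 6.66 log2 with rapamycin and to 6.77 with KU-0063794 (adjusted p = 0.0275 and 0.0131), and Ppat, which encodes the first enzyme of purine synthesis, rose by 0.54 with KU-0063794 (adjusted p = 0.018), although 1 of its 2 probe sets above background went the other way. Ccnd2, the gene of the G1 cyclin D2, fell from 8.22 to 7.75 and 7.49 log2 (adjusted p = 0.0464 and 0.0127), with all 7 of its probe sets above background going the same way. For rapamycin that call was lost with the mean of its probe sets (-0.47; adjusted p = 0.151), with each probe set tested on its own (0.0623), with no filter (0.0534) and with array weights (0.0599). Slc1a5, a glutamine transporter gene, fell by 0.52 and 0.50 (adjusted p = 0.0165 and 0.0205). The nucleolin gene Ncl (0.11 and 0.25), Nop56 (0.04 and 0.16), Odc1 (-0.03 and -0.21) and Tfrc (0.02 and 0.18) did not pass without the block, and of these Ncl passed with it for KU-0063794 (adjusted p = 0.0472). Averaged over all its probe sets Ppat had 0.20 for KU-0063794 and Slc1a5 -0.41 for rapamycin (adjusted p = 0.0773) and -0.19 for KU-0063794, and none of these passed.

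The induced genes that fell in the blocked fit, named after their values were seen, were Ldha, the lactate dehydrogenase gene (log2 fold changes -0.39 for rapamycin and -0.38 for KU-0063794), the hexokinase gene Hk2 (-0.71 and -0.48), the glucose transporter gene Slc2a1 (-0.71 and -0.58), the amino acid transporter genes Slc7a5 (-0.60 and -0.45) and Slc1a5, and Ccnd2. Their blocked adjusted p ran from 0.0013 to 0.0363. For KU-0063794 Hk2 and Slc2a1 did not pass with the random block (adjusted p = 0.0627 and 0.0605 with an estimated correlation). Slc16a1, a lactate transporter gene of the same list, had -0.19 and -0.10, and Shmt2, a serine metabolism gene, -0.16 and -0.08; neither passed in any of these fits. Those that rose in it with rapamycin were Cdk4, the nucleolar helicase gene Ddx21 (0.29) and the DNA repair gene Apex1 (0.37). With KU-0063794 they were Ncl, Fbl, which encodes the nucleolar methyltransferase fibrillarin (0.34), Ddx21 (0.34), the pyrimidine and purine synthesis genes Cad (0.41), Gart (0.32) and Ppat, Cdk4 and Apex1 (0.46). With the random block Ddx21 and Apex1 for rapamycin (adjusted p = 0.136 and 0.0545 with an estimated correlation) and Ncl, Ddx21 and Cad for KU-0063794 (0.0799, 0.0789 and 0.144) did not pass.

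Of 7 tested genes that MYC is known to repress, Cdkn1a, the cell cycle inhibitor p21, fell with both inhibitors (log2 fold changes -0.77 and -0.87, adjusted p = 0.0183 and 0.0149). Cdkn2c, the inhibitor p18, rose with rapamycin (0.58, adjusted p = 0.0209). For KU-0063794 Cdkn2c had 0.35 (adjusted p = 0.118, and 0.0252 with the block and 0.0386 with the random block). Ndrg2 fell with rapamycin with the block and with the random block (-0.39, adjusted p = 0.0459 in both), and did not pass without a block. The medians of that list were -0.39 and -0.30 log2. Without the block 28.6% and 14.3% of the list passed, against 4.44% and 4.07% of all genes. With the block 2 rose and 3 fell with rapamycin and 1 rose and 2 fell with KU-0063794. These were 71.4% and 42.9% of the list, against 11.8% and 12.4% of all genes. With the random block 1 rose and 2 fell, and 1 rose and 1 fell, where 9.38% and 9.72% of all genes passed. Cdkn1b, the inhibitor p27, had 0.33 for rapamycin (adjusted p = 0.427, and 0.0396 with the block), and Cdkn2b, the inhibitor p15, fell with both in that fit (-0.39 and -0.41; adjusted p = 0.0219 and 0.0186). The random block ended these calls (adjusted p = 0.198 for Cdkn1b with rapamycin, and 0.106 and 0.0886 for Cdkn2b, with an estimated correlation). None of 7 tested targets of the MLX partners passed in limma in either fit, with medians of 0.01 and 0.03. Unadjusted, 1 of them had a p under 0.05 for each inhibitor without the block, against 17.9% and 18.5% of all genes. With the block 1 and 2 of them did, against 25.6% and 26.4%. Txnip, the best known of these targets, had log2 fold changes of 0.05 and -0.21, and Arrdc4 lay at background in all groups. All calls of list genes without the block were lost when the arrays of any spleen were left out (limma adjusted p from 0.0696 to 0.325). In a fit of only the 2 groups compared, all of those calls for rapamycin were lost (0.052 to 0.103). For KU-0063794 the calls of Skp2, Ppat and Slc1a5 were lost in that fit (0.0538 to 0.0977), and the others held. Leaving out single arrays also ended several of the calls of MYC induced and MYC repressed genes without the block. With rapamycin they were Cdk4 (without DMSO replicate 1 or 3 or any rapamycin array, 0.0644 to 0.0975), Ccnd2 (without any array but KU-0063794 replicate 2, 0.0542 to 0.146), Slc1a5 (without DMSO replicate 1 or rapamycin replicate 3, 0.0639 and 0.0585), Cdkn1a (without DMSO replicate 1 or 3 or rapamycin replicate 1, 0.0552 to 0.0622) and Cdkn2c (without DMSO replicate 1 or 2 or rapamycin replicate 1 or 3, 0.0538 to 0.0794). With KU-0063794 they were Cdk4 (without KU-0063794 replicate 2 or 3, 0.0525 and 0.0504), Ccnd2 (without KU-0063794 replicate 1 or 3, 0.0546 and 0.0541), Slc1a5 (without DMSO replicate 1 or any KU-0063794 array, 0.0612 to 0.0806), Ppat (without DMSO replicate 1 or KU-0063794 replicate 1 or 2, 0.063 to 0.0692) and Cdkn1a (without DMSO replicate 1 or KU-0063794 replicate 1 or 2, 0.0515 to 0.0594).

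**Figure D5:**
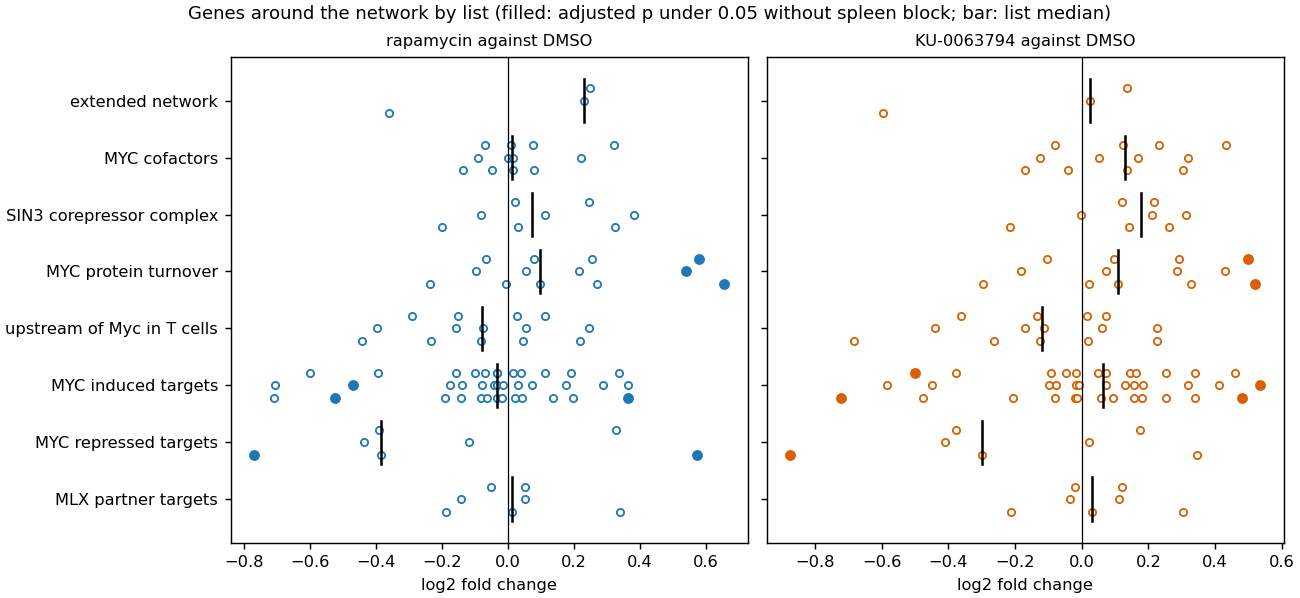
Log2 fold change against DMSO of the tested genes in 8 lists around the network, rapamycin on the left and KU-0063794 on the right; each circle is a gene, filled where its adjusted p is under 0.05 without the spleen block, and black bars are list medians. MYC induced targets spread to both sides of 0 with medians of -0.03 and 0.06, and the filled circles of MYC protein turnover lie between 0.50 and 0.66.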

How the data were processed

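RNA from 9 cultures was hybridised to mouse expression arrays. The deposited values are log2 signals that the authors made with Affymetrix Expression Console 1.3.1, per the submitters' processing notes; the summarisation and normalization are not given in the sources used here. Of 45101 probe sets 34945 carried 1 gene symbol, 932 several and 9160 none in the platform annotation, and 64 were controls. Each gene was read at its probe set with the highest mean, genes with a mean under the 40th percentile (0.314 log2) were left out, and 13278 genes were fitted with limma 3.58.1 in R 4.3.3 over all 3 groups, with Benjamini-Hochberg adjustment at 0.05. Arrays have no read depth; 3 per group limit the precision. On simulated data for rapamycin against DMSO, 32% of genes changed by 0.5 log2 and 87% of those changed by 1 log2 were recovered. The simulated noise was independent between arrays, with no shared spleen, and only the fit without the block was run on it. These shares therefore do not apply to the blocked fits.

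The series' design text states that control and treated cells came from the same spleens. Deviations from group means correlated at 0.345 to 0.533 between arrays of the same spleen, so the fit with the spleen as a block is printed where it changes a call. Between spleens they correlated at -0.414 to -0.0791. Deviations cancel out within a group, so this negative sign follows from the positive values and adds no support of its own. Alternatives covered the block, normalization, filter, probe set choice, variance model, array weights and leave-outs. Members and gene lists were chosen with earlier results of these data known. Named in each list are a fixed panel and the 2 highest and 2 lowest calls per comparison; list genes that passed only with the block were named after their values were seen. Promoter windows and gene positions are RefSeq's on GRCm38.p6.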

Additional observations from a re-analysis of the deposited data

How the results depend on the processing

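For rapamycin, 1 member passed without the spleen term; 5 passed with the replicate block, 3 with the spleen as a random block, and 2 each with genes above background, the mean of all probe sets, trend and robust variances, and array weights. Leaving out arrays gave 0 to 2. For KU-0063794, 0 passed; 5 did with the replicate block, 4 with the random block, 2 with the mean of all probe sets, and 1 each with quantile normalization, median centring, genes above background and array weights, and 0 to 1 with arrays left out. The log2 fold change of Myc for rapamycin passed at 0.48 with the block (adjusted p = 0.00881), the random block (0.0146), genes above background (0.044) and trend and robust variances (0.0279), and at 0.53 with array weights (0.0448); with arrays left out it was 0.38 to 0.57. For KU-0063794 it passed at 0.39 with the block (0.0175) and the random block (0.034), and was 0.29 to 0.47 with arrays left out. Set against the fit without the block, values of the other members kept direction and side of the threshold in 457 of the refits. They passed newly in 20 and were lost in 3, all Mlx for rapamycin without a spleen. These refits include the fits with the fixed and the random block. Several of the 20 new passes arose there, among them those of Mxd1 and Mxi1 for KU-0063794. With the block, 284 refits of the other members kept theirs, 5 passed newly and 47 were lost. Both sets of counts take in all 3 comparisons. A result that had not passed could not be lost and counts as kept where it again did not pass, so the kept refits do not measure how firm the calls were. The sign turned for Mxd1 with rapamycin without DMSO replicate 1 (0.19) or rapamycin replicate 2 (0.07; -0.52 to 0.19 over all leave-outs), and for Mxd4 between the inhibitors without KU-0063794 replicate 1 (-0.33 to 0.15 over all leave-outs). Over all genes, 590 calls for rapamycin became 98 with only the 2 groups compared, 1245 with the random block, 1561 with the block and 0 to 514 with arrays left out; the 540 for KU-0063794 became 111, 1291, 1644 and 0 to 548. List calls ranged over the alternatives, leave-outs aside, from 0 to 9 (rapamycin) and 2 to 14 (KU-0063794) for induced targets, 0 to 5 and 1 to 3 for repressed targets, and 0 to 3 and 1 to 4 for turnover. The cause was not tested. Signal over background limits the 5 dim probe sets.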
